A study of Mus musculus with 10 samples.

Results

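The genes described here were 9 genes of MHC class II antigen presentation and of B cells, chosen by name with earlier results of these data known: *H2-Aa*, *H2-Ab1*, *H2-Eb1*, *H2-DMa*, *Cd74*, *Ciita*, *Cd79a*, *Cd79b* and *Ighm*. They were found by symbol among the 12148 genes of the count table, and all 9 had a row and were among the 12147 genes tested. RNA had been sequenced from whole livers of 10 wild-type germ-free C57BL/6 mice, 1 library per mouse. In the GF+MEV group (n = 5), mice received oral doses of 80 μg of extracellular vesicles that gut microbiota of control SPF mice had shed (MEV), carried in PBS, and in the GF+PBS group (n = 5) they received PBS alone, in both cases 2 doses per week for 3 weeks. The age of the germ-free mice was not given in the sources used here. The comparison of the groups asked how the liver transcriptome differed with MEV.

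MHC class II molecules are pairs of an alpha and a beta chain that show peptides from endocytosed protein to CD4 T cells. They are made mainly by B cells, dendritic cells and macrophages, which in the liver include Kupffer cells. The invariant chain, encoded by *Cd74*, holds the groove of a new class II molecule closed until H2-DM helps load a peptide, and the coactivator CIITA switches the genes of this pathway on together. The B cell receptor is a membrane immunoglobulin, IgM or IgD on naive B cells, that signals through the CD79A and CD79B chains.

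Of the 9 genes, 7 were lower in GF+MEV livers than in GF+PBS livers, none was higher, and 2 (*H2-DMa* and *Ighm*) did not pass the test. The test was edgeR's quasi-likelihood F test with Benjamini-Hochberg adjustment over all tested genes at a threshold of 0.05. Over all genes it called 7.64% in either direction, 3.52% lower and 4.12% higher. All 9 genes were lower and 0 higher at an unadjusted p under 0.05. The share of all genes at that level is not given here, but it exceeded the share called. *Ighm*, at an unadjusted edgeR p of 0.0104, ranked only 1353rd of the 12147 genes. The same limit holds for the unadjusted counts of the gene lists below. DESeq2 called 9 of the 9 genes and limma-voom 7, with 0 higher, beside 1201 and 946 over all genes. The median log2 fold change of the 9 genes was -0.61, beside -0.004 over all genes tested. As the genes were chosen with earlier results known, the contrasts with all genes are descriptions and no independent test. In 5 of the 9, *H2-Aa*, *H2-Ab1*, *Cd74*, *Cd79a* and *Cd79b*, every GF+MEV liver lay below every GF+PBS liver, which held for 3.45% of all genes. In whole tissue, fewer cells of a type and less RNA per cell cannot be told apart.

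**Figure D1:**
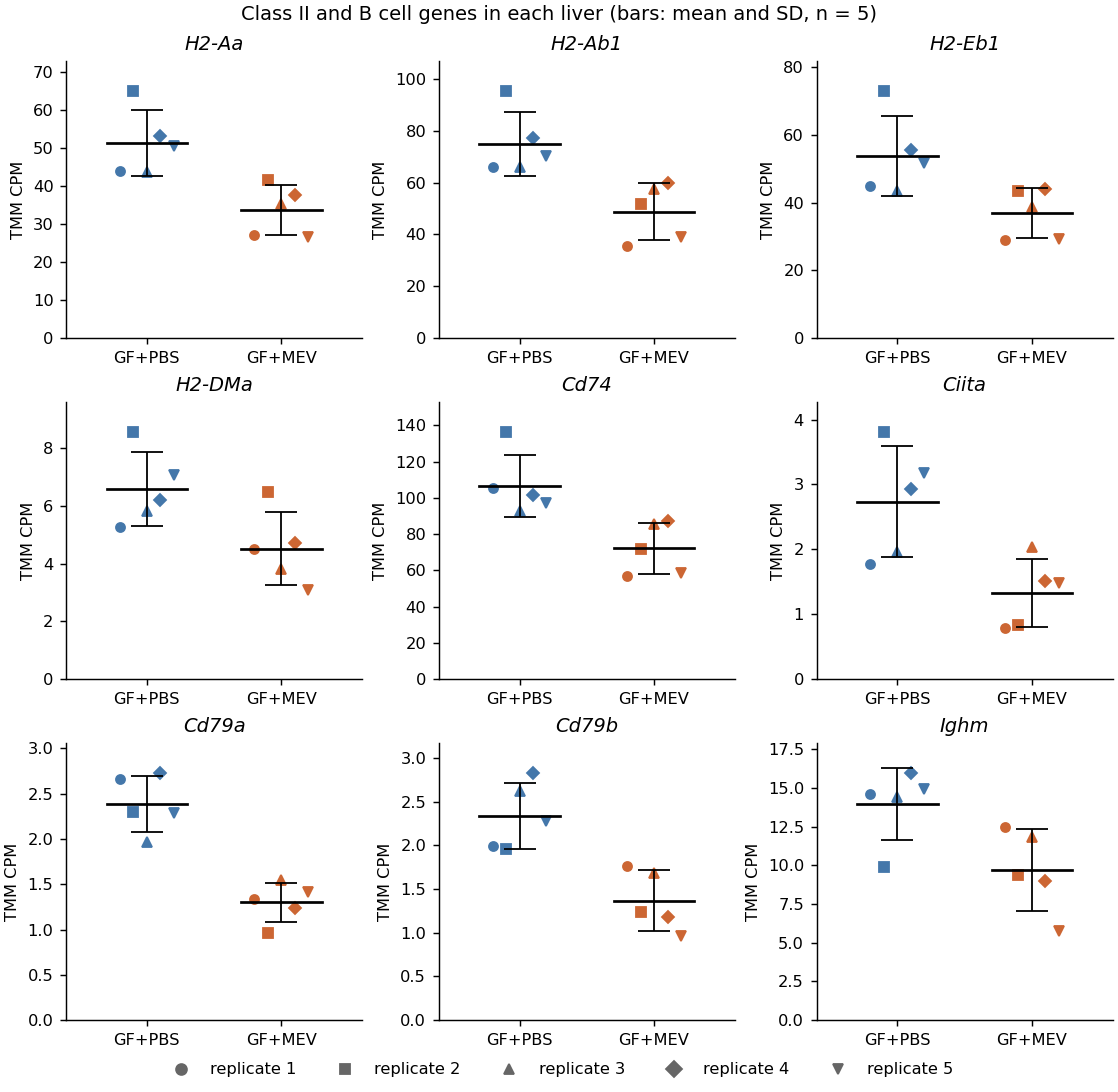
Expression of the 9 genes in each liver, in CPM (counts scaled to library size, TMM-normalized), on linear axes that start at 0. Each symbol is 1 liver, with its shape giving the replicate number within its group, and the bars show mean and SD (n = 5 per group). In *H2-Aa*, *H2-Ab1*, *Cd74*, *Cd79a* and *Cd79b* the groups do not overlap, and the GF+PBS liver with the square symbol is the highest of all in the class II genes but the lowest of its group in *Cd79b* and *Ighm*.

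Libraries held 15746119 to 20523649 counts on genes in GF+MEV (median 16770711) and 16140770 to 19733387 in GF+PBS (median 17104805). Values below are CPM scaled by edgeR's TMM method. Within GF+PBS, replicates 1 and 3 and replicates 4 and 5 were closer to each other (root mean square difference 0.283 and 0.276 in log2 CPM over all genes) than the other pairs of that group (0.311 to 0.402) or the pairs of GF+MEV livers (0.324 to 0.379). With each of these 2 pairs summed into 1 library, 4 of the 9 genes stayed past the threshold (*H2-Aa*, *H2-Ab1*, *Cd74* and *Cd79a*) and the count over all genes was 561 in place of 928. Summing left fewer GF+PBS libraries, so the counts of the 2 fits are not on equal terms. The log2 fold changes of *H2-Eb1*, *Ciita* and *Cd79b*, which lost the call, were -0.615, -1.056 and -0.728, beside -0.547, -1.009 and -0.76 in the main fit. Per kilobase of the principal transcript, *Cd74* had the highest level of the 9 genes in GF+PBS (75.5 ± 12.3 CPM per kb, SD, n = 5). It was followed by *H2-Ab1* (61.9), *H2-Aa* (45.5), *H2-Eb1* (32.2), *Ighm* (8.23), *H2-DMa* (3.98), *Cd79b* (1.96), *Cd79a* (1.64) and *Ciita* (0.455). The GF+MEV livers gave the same order, from 51.1 ± 10.2 CPM per kb for *Cd74* to 0.221 for *Ciita*. In that order the level ranges of *Cd74* and *H2-Ab1*, of *H2-Ab1* and *H2-Aa*, of *H2-Aa* and *H2-Eb1*, and of *Cd79b* and *Cd79a* overlapped in both groups, and those of *Ighm* and *H2-DMa* in GF+MEV. Within single livers, each gene lay above the next in all 5 livers of each group, except *Cd79b* over *Cd79a*, in 4 of 5.

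*H2-Aa* and *H2-Ab1* encode the alpha and the beta chain of I-A, the class II molecule that C57BL/6 mice display. In GF+MEV they were 34.3% and 34.9% lower, without overlap between the groups. *H2-Aa* (ENSMUSG00000036594) lies on the minus strand of chromosome 17 of GRCm38, from 34282744 to 34287823. In GF+PBS replicates 1 to 5 it measured 44.0, 65.2, 43.7, 53.2 and 50.7 CPM. In GF+MEV replicates 1 to 5 it measured 27.2, 41.7, 35.3, 37.7 and 26.7 CPM. The highest GF+MEV liver, replicate 2, thus stayed just under the lowest GF+PBS liver, replicate 3. The means were 33.8 ± 6.6 CPM in GF+MEV and 51.4 ± 8.76 CPM in GF+PBS (SD, n = 5), a log2 fold change of -0.61 (standard error, SE, 0.13, 95% interval -0.89 to -0.32, edgeR adjusted p = 0.0122).

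*H2-Ab1* (ENSMUSG00000073421; plus strand, chr17:34257689-34269419) measured 66.2, 95.5, 66.1, 77.2 and 70.3 CPM in the GF+PBS livers. In the GF+MEV livers it measured 35.4, 51.5, 57.7, 60.02 and 39.1 CPM. GF+PBS replicate 2 was again the highest liver and GF+MEV replicates 1 and 5 the lowest. It had a log2 fold change of -0.62 (SE 0.14, 95% interval -0.93 to -0.31, edgeR adjusted p = 0.0158). For each of *H2-Aa*, *H2-Ab1*, *Cd74*, *Cd79a* and *Cd79b*, the exact two-sided permutation test of 5 livers against 5 gave p = 0.00794, unadjusted. This is the smallest value that its 252 labelings allow, and groups without overlap must give it. It therefore adds nothing to the lack of overlap, which 419 genes showed as lower and 479 as higher among the 12147 tested.

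*H2-Eb1* encodes the beta chain of I-E. Mice of the C57BL/6 background carry a deletion that stops the I-E alpha chain gene, so that the I-E molecule is not assembled although the beta chain gene is transcribed. *H2-Eb1* (ENSMUSG00000060586; plus strand, chr17:34305867-34316674) measured 45.0, 73.1, 43.5, 55.6 and 51.8 CPM in GF+PBS replicates 1 to 5. It measured 28.9, 43.5, 38.6, 44.0 and 29.2 CPM in GF+MEV replicates 1 to 5. The groups overlapped narrowly, with GF+MEV replicate 4 just above GF+PBS replicate 3. The log2 fold change was -0.55 (SE 0.15, 95% interval -0.87 to -0.22, edgeR adjusted p = 0.0389), or 31.6% lower, with p = 0.0159 in the exact two-sided permutation test (n = 5 livers per group). The size of the difference was like that of the I-A chains, but the call was lost in 6 of the 10 fits that left out 1 liver. These were the fits without GF+MEV replicate 1 (edgeR adjusted p = 0.0918), 3 (0.0677) or 5 (0.0879) and without GF+PBS replicate 2 (0.0733), 4 (0.085) or 5 (0.0525).

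The promoters of class II genes are known for an S-X-Y module, in which the X1 box is bound by the RFX complex, the X2 box by CREB-like factors and the Y box by NF-Y, the platform on which CIITA sits. RefSeq promoter windows on GRCm38.p6, of 300 bases each, matched 4 of the 9 genes (*H2-Aa*, *H2-Eb1*, *H2-DMa* and *Cd79a*). The 150 bases before the start of *H2-Aa* (minus strand, chr17:34287824-34287973) and *H2-Eb1* (plus strand, chr17:34305717-34305866) are shown because these genes were both called lower and hold letters of that module. Capitals mark the forward-strand matches to X1, X2 and Y, which are matches of letters and not measured binding sites.
H2-Aa: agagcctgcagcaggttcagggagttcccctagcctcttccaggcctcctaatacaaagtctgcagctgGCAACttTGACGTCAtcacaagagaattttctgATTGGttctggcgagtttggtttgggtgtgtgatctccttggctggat
H2-Eb1: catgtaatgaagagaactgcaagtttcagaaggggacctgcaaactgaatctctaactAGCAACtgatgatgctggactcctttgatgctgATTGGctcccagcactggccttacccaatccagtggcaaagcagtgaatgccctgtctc
The motifs, searched on both strands, were AGCAAC for the X1 core and ATTGG for the Y box. A shorter X1 core without the first of these letters (GCAAC) and TGACGTCA for the X2 box were added after the sequences had been seen. *H2-Aa* held the shorter X1 core from base -81 to -77, the X2 box from -74 to -67 and the Y box from -48 to -44, counted back from the first transcribed base. *H2-Eb1* held the X1 core from -92 to -87 and the Y box from -59 to -55 on the forward strand, and another Y box on the reverse strand from -35 to -31. Of all 32851 windows of this length, 14.8% held the X1 core, 35.2% its shorter form, 1.79% the X2 box and 37.4% the Y box. The shorter X1 core followed by the Y box within 60 bases on the forward strand was in 1.07%. This pairing, too, was added after the sequences had been seen, so its share is no planned comparison. *H2-DMa* had 2 windows, one with the shorter X1 core on the reverse strand from -7 to -3 and the other with the Y box from -198 to -194. The window of *Cd79a* held none of these, nor the octamer ATGCAAAT (1.74% of all windows) or the EBF1 core CCCNNGGG (13.7%), both known from B cell genes.

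*Cd74* encodes the invariant chain, the chaperone of new class II molecules. Its level also fell without overlap between the groups. *Cd74* (ENSMUSG00000024610; plus strand, chr18:60803848-60812652) measured 105, 136, 92.5, 101 and 97.2 CPM in GF+PBS replicates 1 to 5. It measured 57.03, 71.8, 85.7, 87.1 and 58.6 CPM in GF+MEV replicates 1 to 5. The means were 72.0 ± 14.3 and 106.5 ± 17.4 CPM (SD, n = 5), a log2 fold change of -0.56 (SE 0.13, 95% interval -0.84 to -0.28, edgeR adjusted p = 0.0162), or 32.3% lower. Per kilobase, the level of *Cd74* was 1.20 to 1.39 times that of *H2-Ab1* in the GF+MEV livers and 1.13 to 1.37 times in the GF+PBS livers, and the level of *H2-Aa* was 0.658 to 0.870 and 0.711 to 0.775 times that of *H2-Ab1*. These ratios overlapped between the groups.

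H2-DM is the peptide editor of the pathway, and *H2-DMa* encodes its alpha chain. *H2-DMa* (ENSMUSG00000037649; plus strand, chr17:34119541-34139101) measured 5.28, 8.57, 5.83, 6.22 and 7.09 CPM in GF+PBS replicates 1 to 5. It measured 4.51, 6.49, 3.81, 4.72 and 3.08 CPM in GF+MEV replicates 1 to 5. GF+MEV replicate 2 lay above 3 of the GF+PBS livers, while the other 4 GF+MEV livers lay below all of them. The log2 fold change, -0.55 (SE 0.18, 95% interval -0.94 to -0.16), was close in size to those of the chain genes, but did not pass the test (edgeR adjusted p = 0.0873, exact two-sided permutation p = 0.0317, n = 5 livers per group). Without GF+MEV replicate 2 it was -0.70 (edgeR adjusted p = 0.0243), but the other 9 fits that left out 1 liver did not pass (edgeR adjusted p up to 0.184). Exons of *H2-DMa* share 360 bases with those of *Brd2* on the other strand, and reads there cannot be told apart unless the counting used strand, which was not given in the sources used here.

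*Ciita* encodes the class II transactivator. It had the lowest level per kilobase and the largest fitted difference of the 9 genes. *Ciita* (ENSMUSG00000022504; plus strand, chr16:10480059-10528418) measured 1.78, 3.81, 1.96, 2.93 and 3.18 CPM in GF+PBS replicates 1 to 5. It measured 0.793, 0.828, 2.03, 1.52 and 1.48 CPM in GF+MEV replicates 1 to 5. GF+MEV replicate 3 exceeded GF+PBS replicates 1 and 3, so the groups overlapped. The means were 1.33 ± 0.52 and 2.73 ± 0.853 CPM (SD, n = 5), a log2 fold change of -1.01 (SE 0.28, 95% interval -1.60 to -0.41, edgeR adjusted p = 0.039, exact two-sided permutation p = 0.0238, n = 5 livers per group).
These values rest on 12 to 68 counts per library, and the call did not hold in 7 of the 10 fits that left out 1 liver: without GF+MEV replicate 1 (edgeR adjusted p = 0.088), 2 (0.0862), 4 (0.0596) or 5 (0.0628), and without GF+PBS replicate 2 (0.0871), 4 (0.086) or 5 (0.0738). Over these 10 fits the log2 fold change of *Ciita* lay between -1.23 and -0.86. Exons of *Ciita* share 329 bases with *Dexi* on the other strand.

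**Figure D2:**
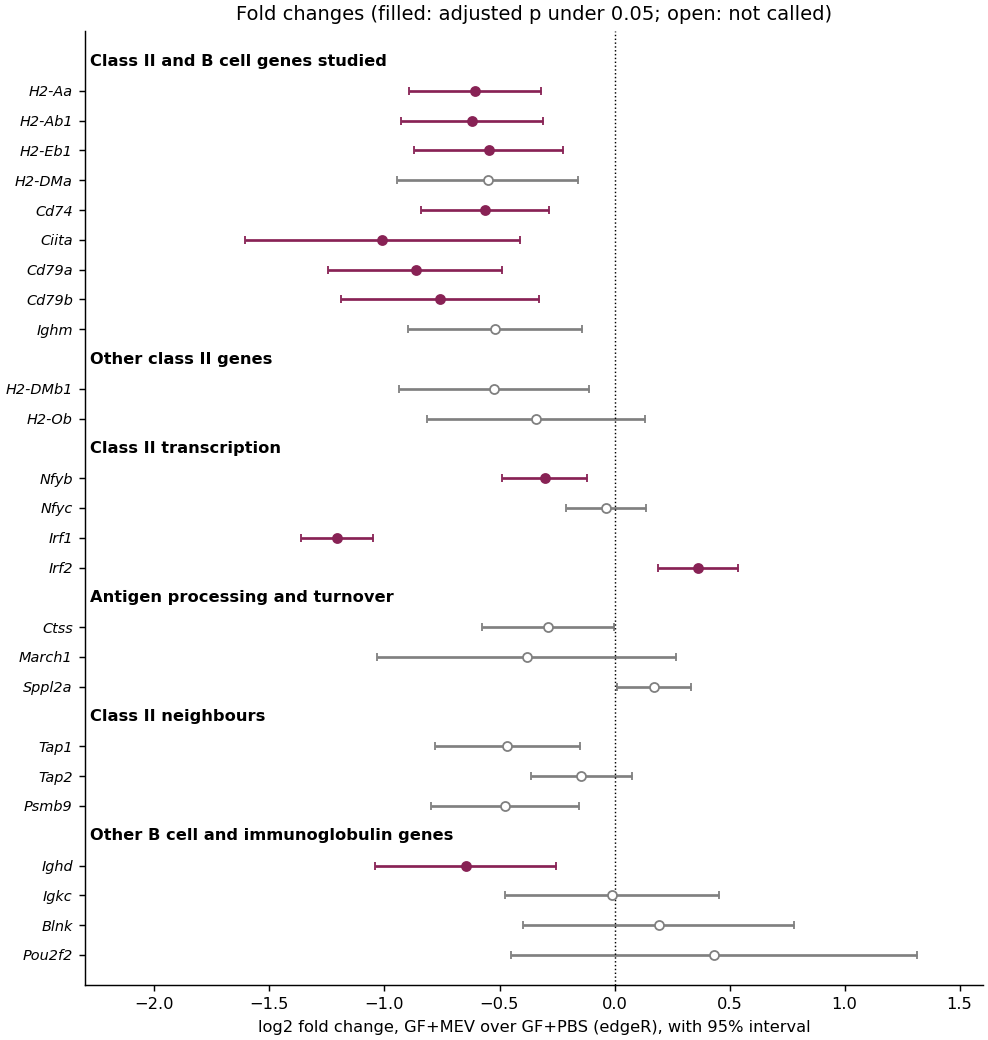
Log2 fold change of each gene, GF+MEV over GF+PBS, from the edgeR fit on 5 livers per group, with its 95% interval. Filled points passed an adjusted p of 0.05 and open points did not. The 9 genes under study all lie to the left of 0, from -1.01 (*Ciita*) to -0.52 (*Ighm*), and the other genes are those of each group named in the text, of which *Irf1*, *Nfyb* and *Ighd* are filled below 0 and *Irf2* above it.

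Among the class II molecules that are no part of the 9, *H2-DMb1*, which encodes the beta chain of H2-DM, had a log2 fold change of -0.52 at an edgeR adjusted p of 0.121. *H2-Ob*, a beta chain of the H2-O molecule that restrains H2-DM in B cells, had one of -0.34 (edgeR adjusted p = 0.414). With both, 7 of 12 listed class II molecules were tested, and 4 were lower, 0 higher and 3 not called, with a median log2 fold change of -0.55. Without adjustment, 6 were lower and 0 higher at p under 0.05, and DESeq2 called 5 and limma-voom 4. *H2-Ea*, *H2-Ea-ps*, *H2-Eb2*, *H2-DMb2* and *H2-Oa* were not analysed here.

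The DNA-binding partners of CIITA gave smaller values than *Ciita* itself. All 8 genes listed for class II transcription were tested, of which 2 were lower and 0 higher, with a median log2 fold change of -0.10. The counts at an unadjusted p under 0.05 were also 2 lower and 0 higher, and DESeq2 and limma-voom called 2 each. Beside *Ciita*, the gene past the threshold was *Nfyb*, a subunit of the Y box factor NF-Y, at a log2 fold change of -0.30 at an edgeR adjusted p of 0.045, a call that held in only 1 of the 10 fits that left out 1 liver (edgeR adjusted p from 0.0285 without GF+MEV replicate 1 to 0.102 without GF+MEV replicate 3). The smallest difference was that of *Nfyc*, another NF-Y subunit, at -0.04 (edgeR adjusted p = 0.849).

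Of 8 genes tested from interferon gamma to *Ciita*, 1 was lower, 1 higher and 6 were not called, with a median log2 fold change of -0.08. *Irf1*, an interferon-induced activator of *Ciita* transcription, was lower by a log2 fold change of -1.21 with an SE of 0.07 (edgeR adjusted p = 9.28e-08), at 16.2 ± 0.869 CPM in GF+MEV and 37.3 ± 3.09 CPM in GF+PBS (SD, n = 5). Its exons overlap those of *Gm17334* on the other strand by 135 bases. *Irf2*, which binds the same DNA element, was higher by 0.36 (edgeR adjusted p = 0.0134, and 0.054 with the alike GF+PBS livers summed). *Ifng* and *Socs1* were not analysed here.

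The enzymes that cut antigen and the invariant chain, and the proteins that turn class II molecules over, gave values on both sides of 0, with 7 of 11 negative. None of the 11 tested was called by edgeR, although 1 was lower without GF+MEV replicate 4. At an unadjusted p under 0.05, 2 were higher and 1 lower, and DESeq2 and limma-voom each called 1, which was higher. Their median log2 fold change was -0.05. The list mixed genes of unlike level, with *March1* at 1.61, *Ctss* at 31.8 and *Sppl2a* at 146 CPM in GF+PBS. Which cells made this RNA was not tested, so the median does not stand for antigen-presenting cells alone. *Ctss*, the protease that trims the invariant chain in antigen-presenting cells, had a log2 fold change of -0.29 at an edgeR adjusted p of 0.231, *March1*, a ubiquitin ligase of class II molecules, one of -0.38 (edgeR adjusted p = 0.521), and *Sppl2a*, which cleaves the last invariant chain fragment, one of 0.17 (edgeR adjusted p = 0.20).

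The region of chromosome 17 from *H2-DMa* to *H2-Eb1* (chr17:34119541-34316674, 197.1 kb) holds 17 annotated genes, of which 10 had a row. All 10 had a negative log2 fold change, beside 6198 of the 12147 genes tested. Their median was -0.50, and edgeR called 3 lower, the 3 chain genes above. The 10 include *H2-Aa*, *H2-Ab1*, *H2-Eb1* and *H2-DMa*, so they are no separate set from the genes under study. DESeq2 called 6 and limma-voom 3, and 8 were lower and 0 higher at an unadjusted p under 0.05. Among them, *Tap1* and *Psmb9*, which serve class I presentation as a peptide transporter subunit and an immunoproteasome subunit, had log2 fold changes of -0.47 each (edgeR adjusted p = 0.0729 and 0.0718). *Tap2*, the partner of *Tap1*, had the smallest at -0.15 (edgeR adjusted p = 0.461).

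*Cd79a* and *Cd79b* encode the signalling chains of the B cell receptor. Both were lower in every GF+MEV liver than in any GF+PBS liver. *Cd79a* (ENSMUSG00000003379; plus strand, chr7:24897381-24902197) measured 2.67, 2.30, 1.96, 2.73 and 2.28 CPM in GF+PBS replicates 1 to 5. It measured 1.34, 0.966, 1.54, 1.24 and 1.41 CPM in GF+MEV replicates 1 to 5. The log2 fold change was -0.87 (SE 0.18, 95% interval -1.24 to -0.49, edgeR adjusted p = 0.00715), or 45.1% lower, and its call was kept under all 18 alternative settings (edgeR, DESeq2 or limma-voom adjusted p 0.00299 to 0.0293). Its counts were between 14 and 54 per library.

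*Cd79b* (ENSMUSG00000040592; minus strand, chr11:106311341-106314762) measured 1.999, 1.96, 2.62, 2.83 and 2.28 CPM in GF+PBS replicates 1 to 5. It measured 1.77, 1.24, 1.69, 1.18 and 0.964 CPM in GF+MEV replicates 1 to 5. The distance between the highest GF+MEV liver and the lowest GF+PBS liver was smaller than for *Cd79a*. In the fit, the log2 fold change was -0.76 (SE 0.20, 95% interval -1.19 to -0.33, edgeR adjusted p = 0.0316), or 40.9% lower, on 15 to 56 counts per library. The call was lost without GF+MEV replicate 2 (edgeR adjusted p = 0.0696), 4 (0.0726) or 5 (0.075) and without GF+PBS replicate 3 (0.0776), 4 (0.0882) or 5 (0.0506).

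*Ighm* encodes the constant region of the IgM heavy chain. *Ighm* (ENSMUSG00000076617; minus strand, chr12:113418558-113422730) measured 14.6, 9.92, 14.4, 15.97 and 14.95 CPM in GF+PBS replicates 1 to 5. It measured 12.5, 9.38, 11.8, 8.98 and 5.78 CPM in GF+MEV replicates 1 to 5. GF+PBS replicate 2 stood apart from its group and lay among the GF+MEV livers, while the other 4 GF+PBS livers lay above all GF+MEV livers. The log2 fold change of -0.52 (SE 0.18, 95% interval -0.90 to -0.14) did not pass the test (edgeR adjusted p = 0.0932, exact two-sided permutation p = 0.0397, n = 5 livers per group). Without GF+PBS replicate 2 it was -0.62 (edgeR adjusted p = 0.0366), but the other 9 fits that left out 1 liver did not pass (edgeR adjusted p up to 0.202). Relative to the summed CPM of *Cd79a* and *Cd79b*, *Ighm* lay at 2.43 to 4.25 in the GF+MEV livers and at 2.33 to 3.28 in the GF+PBS livers, with overlap.

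Of the other immunoglobulin genes, *Ighd*, the constant region of IgD, was lower by a log2 fold change of -0.65 at an edgeR adjusted p of 0.045, with 1.99 ± 0.449 CPM in GF+MEV and 3.15 ± 0.506 CPM in GF+PBS (SD, n = 5) and no overlap. Its call held in only 1 of the 10 fits that left out 1 liver, that without GF+MEV replicate 4 (edgeR adjusted p = 0.0377), and the others gave up to 0.0948. *Igkc*, the constant region of the kappa light chain, had a log2 fold change of -0.01 (95% interval -0.48 to 0.46, edgeR adjusted p = 0.987). Of the 13 plasma cell genes listed, only *Xbp1* (log2 fold change -0.39, edgeR adjusted p = 0.000752) and *Sdc1* (0.14, edgeR adjusted p = 0.295) were tested, and both are also made by hepatocytes.

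Other genes of B cells gave mixed values. Of 22 genes of the B cell receptor and its signalling, 18 were tested, and *Cd79a*, *Cd79b* and *Ighd* were lower and 0 higher, with a median log2 fold change of -0.09. At an unadjusted p under 0.05, 7 were lower and 0 higher, and DESeq2 called 5 and limma-voom 3. Their largest positive value was that of the adaptor gene *Blnk*, 0.19 (edgeR adjusted p = 0.751). Of 22 B cell identity genes, 13 were tested and the other 9 were not analysed here. Their median was -0.35, and *Cd79a* and *Cd79b* were again the genes called. Without adjustment, 5 were lower and 0 higher at p under 0.05, and DESeq2 and limma-voom called 2 each. *Pou2f2*, which encodes the octamer factor OCT2, had the largest positive value at 0.43 (edgeR adjusted p = 0.606). Without GF+MEV replicate 4, the value of *Pou2f2* was -0.26. The summed level of the 13 identity genes was 17.8 to 28.1 CPM in GF+MEV and 25.6 to 29.0 CPM in GF+PBS.

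**Figure D3:**
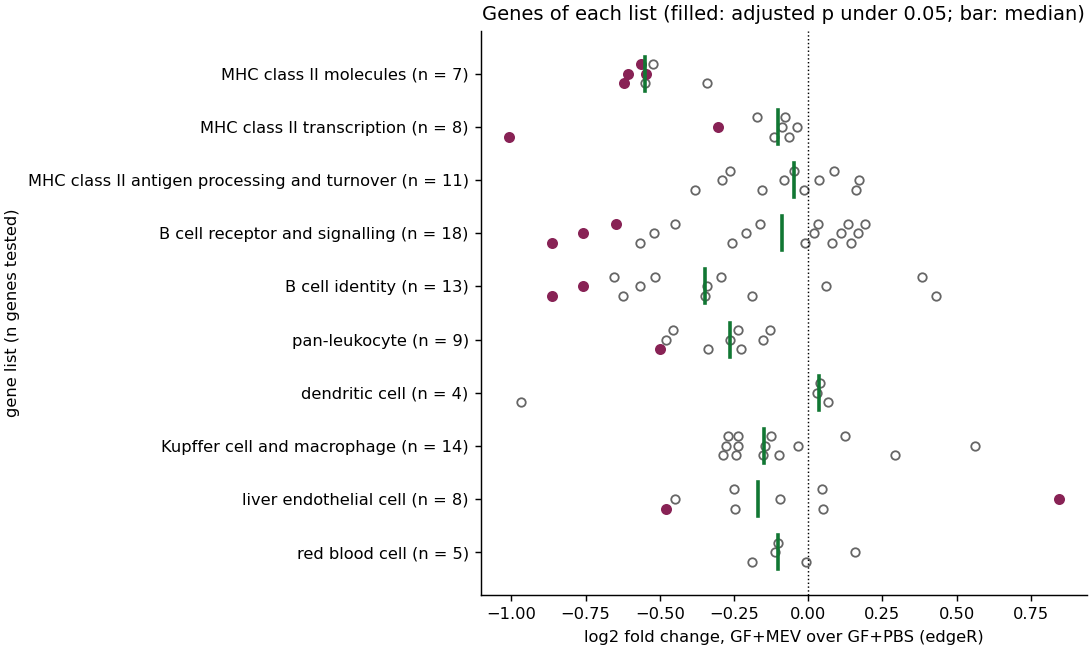
Log2 fold change of every tested gene in 10 gene lists, GF+MEV over GF+PBS. Filled points passed an edgeR adjusted p of 0.05, open points did not, and the green bar is the median of the list. The class II molecules cluster around a median of -0.55, while the genes of antigen processing centre on -0.05 and the Kupffer cell and macrophage genes on -0.15.

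The levels of other liver cell markers were read beside these results. All 14 genes of Kupffer cells and macrophages, the resident phagocytes of the liver, which can display class II, were tested. None was called by edgeR, DESeq2 or limma-voom, and at an unadjusted p under 0.05, 1 was higher and 0 lower. Their median was -0.15, and their summed level lay at 377.9 to 695.4 CPM in GF+MEV livers and at 440.2 to 612.8 CPM in GF+PBS livers. The values depended on GF+MEV replicate 4, which had the highest sum of all 10 livers. The other 4 GF+MEV livers lay between 377.9 and 468.8 CPM, and without replicate 4, 5 of the 14 genes were lower and 0 higher. *Marco*, a scavenger receptor gene, then changed from a log2 fold change of 0.56 at an edgeR adjusted p of 0.692 to -1.19 (edgeR adjusted p = 0.00881), and *Cd5l*, a secreted macrophage protein gene, from -0.29 (edgeR adjusted p = 0.478) to -0.56 (edgeR adjusted p = 0.0332).

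GF+MEV replicate 4 also had the highest sum of the class II molecules in its group (240.4 CPM) and was the highest GF+MEV liver in *H2-Ab1*, *H2-Eb1* and *Cd74*. It lay below every GF+PBS liver in *H2-Aa*, *H2-Ab1* and *Cd74*. Without it, 5 of the 9 genes were called lower, and *Ciita* and *Cd79b* were not. The summed CPM of *H2-Aa*, *H2-Ab1* and *H2-Eb1* was 0.204 to 0.353 times that of the Kupffer cell and macrophage genes in GF+MEV (median 0.252). In GF+PBS it was 0.272 to 0.402 times (median 0.381), so the median was lower in GF+MEV but the ranges overlapped.

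Of 10 pan-leukocyte genes, 9 were tested and all 9 had a negative log2 fold change, with a median of -0.27. *Coro1a*, an actin-binding protein gene of blood cells, was lower by -0.50 (edgeR adjusted p = 0.0211, and 0.0596 without GF+PBS replicate 4). The other 8 were not called. At an unadjusted p under 0.05, 4 were lower and 0 higher, DESeq2 and limma-voom called 1 each, and without GF+MEV replicate 4, 3 were lower. Their summed level was 40.7 to 83.4 CPM in GF+MEV and 63.7 to 75.8 CPM in GF+PBS, and GF+MEV replicate 4 was again the highest. All 4 other GF+MEV livers, at 40.7 to 56.6 CPM, lay below the GF+PBS livers. The summed level of *Cd79a* and *Cd79b* was 0.0289 to 0.0646 times that of the pan-leukocyte genes in GF+MEV (median 0.0572). In GF+PBS it was 0.0562 to 0.0859 times (median 0.0716), with overlap. How far the number of leukocytes in the tissue had a part in the lower class II and B cell genes was not tested.

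Dendritic cell genes were sparse, with 4 of 13 tested, none called by edgeR, DESeq2 or limma-voom, 1 lower at an unadjusted p under 0.05, and a median of 0.04. *Batf3*, a factor of conventional dendritic cells, stood at -0.97 on the log2 scale (edgeR adjusted p = 0.0684, and 0.0416 without GF+MEV replicate 4 and 0.0267 without GF+PBS replicate 5), and *Clec9a*, a receptor of the same cells, one of 0.07 (edgeR adjusted p = 0.911). The 16 T and NK cell genes listed were not analysed here, and of 8 neutrophil genes only *Csf3r* was tested (-0.10, edgeR adjusted p = 0.863). Of 8 liver endothelial genes, *Clec4g* was lower (-0.48, edgeR adjusted p = 0.0214) and *Lyve1* higher (0.85, edgeR adjusted p = 0.0401), calls lost in 3 and in 5 of the 10 fits that left out 1 liver (edgeR adjusted p up to 0.0601 and 0.116). Exons of *Clec4g* overlap those of *Gm16553* on the other strand by 146 bases.

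Red blood cell genes, read as a sign of blood left in the tissue, summed to 249.7 to 389.6 CPM in GF+MEV and 276.4 to 470 CPM in GF+PBS. None of the 5 tested was called, none had an unadjusted p under 0.05, and DESeq2 and limma-voom called none. The ends of that list were *Hba-a2* (log2 fold change 0.16) and *Hbb-bs* (-0.19). GF+PBS replicate 2, the highest liver in all 6 class II genes, also had the highest red cell sum. Among hepatocyte genes, *Alb*, the albumin gene, had 76250 ± 7010 CPM in GF+MEV and 78080 ± 4590 CPM in GF+PBS (SD, n = 5), and *Tat* (log2 fold change 2.10, edgeR adjusted p = 7.64e-08) and *Cps1* (0.38, edgeR adjusted p = 0.0414) were higher in GF+MEV. The call of *Cps1* was lost in 8 of the 10 fits that left out 1 liver, with an edgeR adjusted p of up to 0.105. Its list had *Ttr*, the transthyretin gene, as its lowest value (-0.16).

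**Figure D4:**
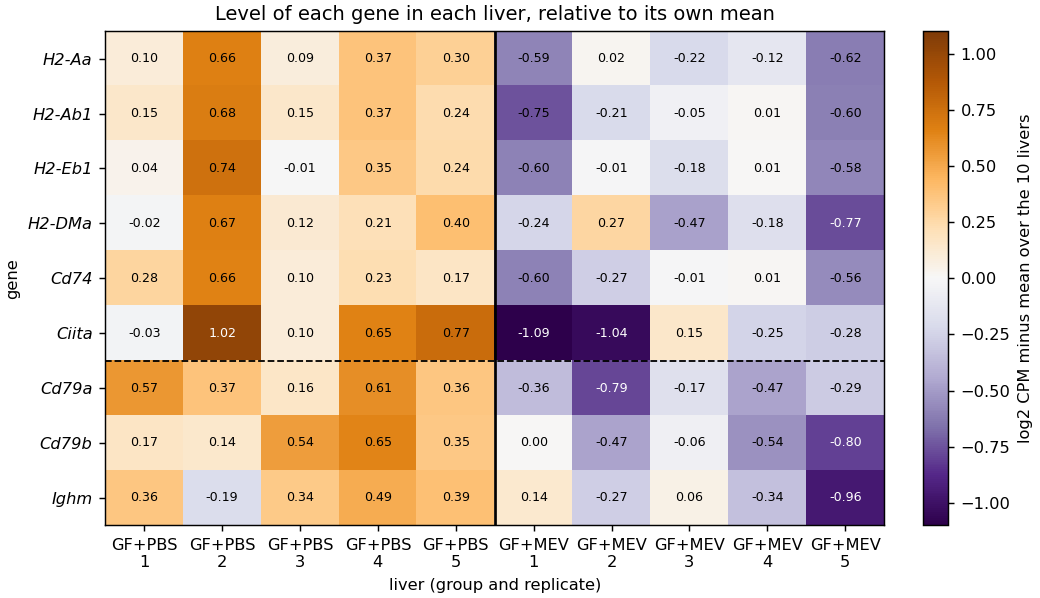
Level of each of the 9 genes in each liver, as log2 CPM minus the mean of that gene over the 10 livers (orange above the mean, purple below). The solid line divides the groups and the dashed line divides class II genes from B cell genes. GF+PBS replicate 2 is the highest liver in all 6 class II genes, GF+PBS replicate 4 is the highest in the 3 B cell genes, and GF+MEV replicates 1 and 5 hold the lowest value in 4 genes each.

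The class II genes and the B cell genes did not rank the livers in the same order. GF+PBS replicate 2 was the highest of the 10 livers in *H2-Aa*, *H2-Ab1*, *H2-Eb1*, *H2-DMa*, *Cd74* and *Ciita*, and the lowest GF+PBS liver in *Cd79b* and *Ighm*. GF+PBS replicate 4 was the highest of the 10 livers in *Cd79a*, *Cd79b* and *Ighm*. Of the lowest values, GF+MEV replicates 1 and 5 held 4 each and GF+MEV replicate 2 held that of *Cd79a*. These ranks are a description of single livers and carry no test.

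The likeness of other genes was measured as the root mean square difference of their log2 CPM, centred over the 10 livers, among genes that averaged 1 CPM or more. Nearest to the mean profile of *H2-Aa*, *H2-Ab1*, *H2-Eb1* and *Cd74* were *Apol9a* (0.115), *Tap1* (0.141), *Psmb9* (0.142), *Il2rb* (0.142) and *Trim30a* (0.145), out of 11830 genes. The SD of that profile itself was 0.40. None of these 5 passed the edgeR test (adjusted p 0.0711 to 0.219, all with a log2 fold change between -0.47 and -0.42), and *Apol9a* has a near-identical copy with which it may share reads. *H2-DMa* was the 92nd nearest gene (0.237). *Ciita* was the 6790th (0.425), and its centred values were of larger amplitude.

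Nearest to the mean profile of *Cd79a* and *Cd79b* were *Dact2* (0.135), *Tmem25* (0.137), *F3* (0.141), *Grb7* (0.156) and *Zfp865* (0.163), out of 11832 genes, each of which was called lower (edgeR adjusted p 5.4e-06 to 0.0063). *Ighm* was the 113th (0.261). Among the genes nearest to *Ighm* were *Cd79b* (0.188), *Mroh2a* (0.204), *Pcp4l1* (0.213) and *Rps4l* (0.214). All of these distances share the same 10 libraries and the same group difference, so they describe how the levels ran together in these livers.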

How the data were processed

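Raw gene counts, deposited by the authors without normalization, were used for 5 GF+MEV and 5 GF+PBS livers. The authors extracted RNA from whole liver, prepared libraries with the NEBNext Ultra RNA kit, aligned reads to GRCm38 with STAR 2.7.3a, counted them per Ensembl gene with HTSeq, and left out genes with under 20 counts over the samples. The table held 5 columns matching no described sample, which were not used. The smallest total of a row over all columns was 59, so genes without a row may have had 20 counts or more. Symbols and positions came from GENCODE M21, and 5 identifiers had no symbol.

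Genes with at least 20 counts over the 10 libraries were fitted in edgeR 4.0.16 (R 4.3.3; TMM, quasi-likelihood F test on the group, Benjamini-Hochberg at 0.05). Log2 CPM used a prior count of 2. Standard errors came from the log2 fold change and its F statistic. Single genes were also compared by exact two-sided permutation of the mean log2 CPM. Livers of a group were taken as separate mice.

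Alternatives were DESeq2 1.42.0, limma-voom (limma 3.58.1), RLE or upper-quartile normalization, no filter, at least 10 counts in every library, a replicate block, the alike GF+PBS pairs summed, and each liver left out. Same-numbered livers of the groups did not deviate together (correlations -0.188 to 0.166), so the block was no main setting. The fit was tested on simulated data. The 9 genes and the gene lists were chosen with earlier results of these data known. Beside the 9, the text names from each list the genes called and the largest rise and fall, and the 5 nearest profiles, of which some are not reported here. *H2-DMb1*, *Ctss* and *Alb* were named for their roles after their values had been seen.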

Additional observations from a re-analysis of the deposited data

Results flagged for a closer look

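Of 74 groups of 5 livers (37 genes, being the 9 and those called or at either end of a gene list, each in GF+MEV and GF+PBS), 6 held a liver whose gap to the nearest other was large against the range of the group, where chance gives about 1 in 20, or 3.7. Among the 9 genes this was *Ighm* in GF+PBS replicate 2, at 9.92 CPM beside 14.4 to 15.97 CPM in the others of its group. *Hbb-bs*, a beta globin gene, was highest in the same liver, at 206 CPM beside 103 to 123 CPM. Of 3 genes highest in GF+MEV replicate 4, *Marco* had 21.2 CPM beside 1.28 to 2.17 CPM, *Itgb2* 13.1 CPM beside 4.57 to 7 CPM and *Pou2f2* 3.09 CPM beside 0.643 to 0.917 CPM. *Nfyb* was highest in GF+PBS replicate 1, at 33.5 CPM beside 27.2 to 28.7 CPM. The rate of 1 in 20 does not hold for genes picked at the end of a list, where 1 outlying liver can place a gene. The 6 groups found can therefore not be weighed against 3.7.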

How the results depend on the processing

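Under all 18 alternatives *H2-Aa*, *H2-Ab1*, *Cd74* and *Cd79a* stayed lower and past the threshold. *H2-Eb1* did so in 11, *Cd79b* in 10 and *Ciita* in 9, and *H2-DMa* and *Ighm* passed it in 2 each, one of them DESeq2. No alternative reversed any of the 9 genes. Of the 9, DESeq2 called 9, the fit with a replicate block 5 (792 genes in all; *Ciita* adjusted p = 0.0548 and *Cd79b* 0.058), the sum of alike GF+PBS livers 4 (561 genes in all), and the fits that left out 1 liver 4 to 7, with 4 without GF+MEV replicate 5, GF+PBS replicate 4 or GF+PBS replicate 5. Summing, which left fewer GF+PBS libraries, also ended the calls of *Nfyb*, *Irf2*, *Ighd*, *Coro1a*, *Lyve1*, *Clec4g* and *Cps1* (adjusted p 0.054 to 0.118). The numbers of GF+MEV and GF+PBS livers did not pair them. Over all genes, DESeq2 called 1201, limma-voom 946, RLE 943, no filter 927, a minimum of 10 counts 894 and leaving out 1 liver 696 to 926. Upper-quartile scaling called 1040, with 428 higher and 612 lower in place of 500 and 428, at a median shift of -0.046, and 7 of the 9. Reversed values were those of *Marco* (limma-voom -0.39, replicate block -0.25, leaving out 1 liver -1.19 to 0.81) and *Igkc* (0.027, 0.017, summed pairs 0.04, leaving out 1 liver -0.11 to 0.17), and with 1 liver left out *Clec9a* (-0.10 to 0.16), *Blnk* (-0.062 to 0.37), *Nfyc* (-0.07 to 0.025), *Pou2f2* (-0.26 to 0.59), *Csf3r* (-0.26 to 0.039) and *Hbb-bs* (-0.33 to 0.034). The causes were not tested. Counts under 70 per library limit the precision of *Ciita*, *Cd79a* and *Cd79b*.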
